A study of Homo sapiens with 18 samples.

Results

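The response of RNA to BRM014 was compared between 2 human neuroblastoma cell lines, SK-N-DZ and KELLY. The measure was a difference of differences: the BRM014 effect over DMSO in SK-N-DZ minus the BRM014 effect over DMSO in KELLY. The comparison rests on 8 of the 18 libraries of the study, 2 in each of 4 groups, and it was tested for 12853 of the 28063 genes listed. The groups were SK-N-DZ cells given 1 uM BRM014, SK-N-DZ cells given DMSO, KELLY cells given 1 uM BRM014 and KELLY cells given DMSO, in that order below. Both lines are labelled wild type, and all 8 cultures received 500 uM 4-thiouridine, a uridine analogue that cells build into new RNA, during the last 2 h. Whether all reads or only those with signs of 4-thiouridine were counted is not stated, so the counts may include older RNA. The fit also took in 8 IMR-32 libraries, likewise labelled with 4-thiouridine, which add to the estimate of the spread. They were 2 each of wild-type cells given 1 uM BRM014 or DMSO, and 2 each of SMARCA4-mAID cells given 500 uM auxin or ethanol. These cells were engineered so that auxin triggers degradation of SMARCA4. The sources used here give no exposure time for BRM014 and no word on whether replicates were grown separately, so the p-values measure only how far these libraries spread, part of which may be technical.

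BRM014 blocks the ATPase activity of SMARCA4 (BRG1) and SMARCA2 (BRM), the alternative motors of the SWI/SNF (BAF) chromatin remodelling complexes, which slide and evict nucleosomes and keep enhancers accessible. KELLY and SK-N-DZ both carry an amplified MYCN gene and belong to the adrenergic type of neuroblastoma, in which HAND2, GATA3, ISL1, TBX2 and others form a circuit of transcription factors that hold the sympathetic neuroblast state. A gene can differ between the lines because it moved in 1 line and not in the other, because it moved further in 1 line, or because it moved in opposite directions.

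Gene counts, which each deposited file gives as whole numbers per gene, summed to 724913 and 758288 in the SK-N-DZ BRM014 libraries, 1589230 and 1740475 in the SK-N-DZ DMSO libraries, 1505376 and 1512030 in the KELLY BRM014 libraries, and 1590402 and 1235931 in the KELLY DMSO libraries. The SK-N-DZ BRM014 libraries were thus the shallowest, and genes that fell in them were measured with the fewest counts. Per the labels' protocols, the RNA was modified with iodoacetate, which marks the thiouridines, and captured on poly(dT), so it is polyadenylated RNA; 2 further KELLY libraries from cells given neither BRM014 nor 4-thiouridine (called unlabelled below) held 5395 and 4432 gene counts. Summed levels of 9 adrenergic markers were 4793 to 5414, 4237 to 4365, 5105 to 5156 and 3661 to 3776 CPM (counts scaled to each library's total and composition) in the 4 groups. Markers of other cell types were low: S100B and CDH19 (Schwann cells), DCN (fibroblasts), CD3E and LYZ (immune cells), KRT5, KRT14, CDH1 and GRHL2 (epithelium) and PECAM1 and CDH5 (endothelium) were at 0 in all 8 libraries. The summed level of 8 fibroblast markers was 83.3 to 106.4 CPM in SK-N-DZ with BRM014, 132 to 150.3 CPM in SK-N-DZ with DMSO, 66.6 to 69.1 CPM in KELLY with BRM014 and 73.0 to 106.2 CPM in KELLY with DMSO, and its part in the results was not tested. In such bulk libraries, fewer cells of a type and less RNA per cell cannot be told apart. SMARCA4 itself had 108 and 129 CPM in SK-N-DZ with BRM014, 164 and 145 CPM in SK-N-DZ with DMSO, 104 and 126 CPM in KELLY with BRM014 and 110.3 and 107 CPM in KELLY with DMSO. Its difference of effects was -0.46 (log2, SE 0.22, adjusted p = 0.3). Since BRM014 acts on the protein, its RNA does not check the labels. SMARCA2 had no counts in the KELLY libraries, and 3 counts with BRM014 against 6 with DMSO in SK-N-DZ, a ratio of normalised levels of 1.13 (95% counting interval 0.183 to 5.29).

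BRM014 shifted RNA in both lines, and for 501 genes (3.9% of those tested) the shift differed between them at a Benjamini-Hochberg adjusted p below 0.05 in edgeR's quasi-likelihood test, the threshold used throughout. The effect was higher in SK-N-DZ for 209 genes (1.63%) and lower in SK-N-DZ for 292 (2.27%). Within the lines, 2498 genes (19.4%) changed in SK-N-DZ, of which 1270 rose (9.88%) and 1228 fell (9.55%), and 1485 (11.6%) changed in KELLY, of which 845 rose (6.57%) and 640 fell (4.98%). Over 9226 genes with a mean count of at least 20, the effects in SK-N-DZ and in KELLY, which share no library, correlated across genes with a Pearson r of 0.518 and a Spearman coefficient of 0.505; genes are not independent replicates. Of the 501 genes, 274 changed in SK-N-DZ while the KELLY effect did not pass the test, 112 changed in KELLY while the SK-N-DZ effect did not pass, 41 changed the same way in both lines and further in SK-N-DZ, 32 changed the same way and further in KELLY, and 31 changed in opposite directions. For the other 11 the effect passed in neither line alone. By fitted direction, the 209 genes higher in SK-N-DZ comprised 117 that were up in SK-N-DZ and down in KELLY, 74 that were up in both and 18 that were down in both; the 292 lower genes comprised 168 down in SK-N-DZ and up in KELLY, 71 down in both and 53 up in both. The median difference was 1.15 (log2) among the higher genes and -1.37 among the lower ones, and 32 and 78 of them exceeded a log2 difference of 2 in size. In 499 of the 501, the 4 SK-N-DZ ratios of a BRM014 to a DMSO library did not overlap the 4 KELLY ratios, beside 28.6% of all genes tested. The 501 were called from these same libraries, so this count is not separate evidence. Of the 501, 5 had under 10 counts in all 4 libraries of 1 line together, but such a gene can seldom pass the test. With DMSO, 113 of the 209 higher genes were called lower in SK-N-DZ than in KELLY and 25 higher. Of the 292 lower genes, 33 were called lower in SK-N-DZ with DMSO and 162 higher. For all 12853 genes tested these counts were 1953 and 2138. The starting levels share their DMSO libraries with the difference, and their part in the results was not tested.

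The number called depended on single libraries. Without the second SK-N-DZ DMSO library it was 318, with 137 higher and 181 lower. The number higher was 139 without the first KELLY BRM014 library, 136 without the first KELLY DMSO library and 137 without the first SK-N-DZ BRM014 library. In SK-N-DZ alone 1625 genes changed without the first BRM014 library and 1614 without the second DMSO library, and in KELLY alone 882 changed without the first BRM014 library and 859 without the first DMSO library. The calls of named genes given below held with each of the 8 libraries left out in turn unless another value is stated. When true differences of 2 were simulated at these depths, 86% of the increases and 72% of the decreases were recovered. Of differences of 1, 20% and 6% were recovered, so smaller differences were mostly below what these libraries can show. Each size and direction was given to 50 genes with a mean simulated count of at least 20. Recovery in genes with fewer counts was not simulated.

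**Figure D1:**
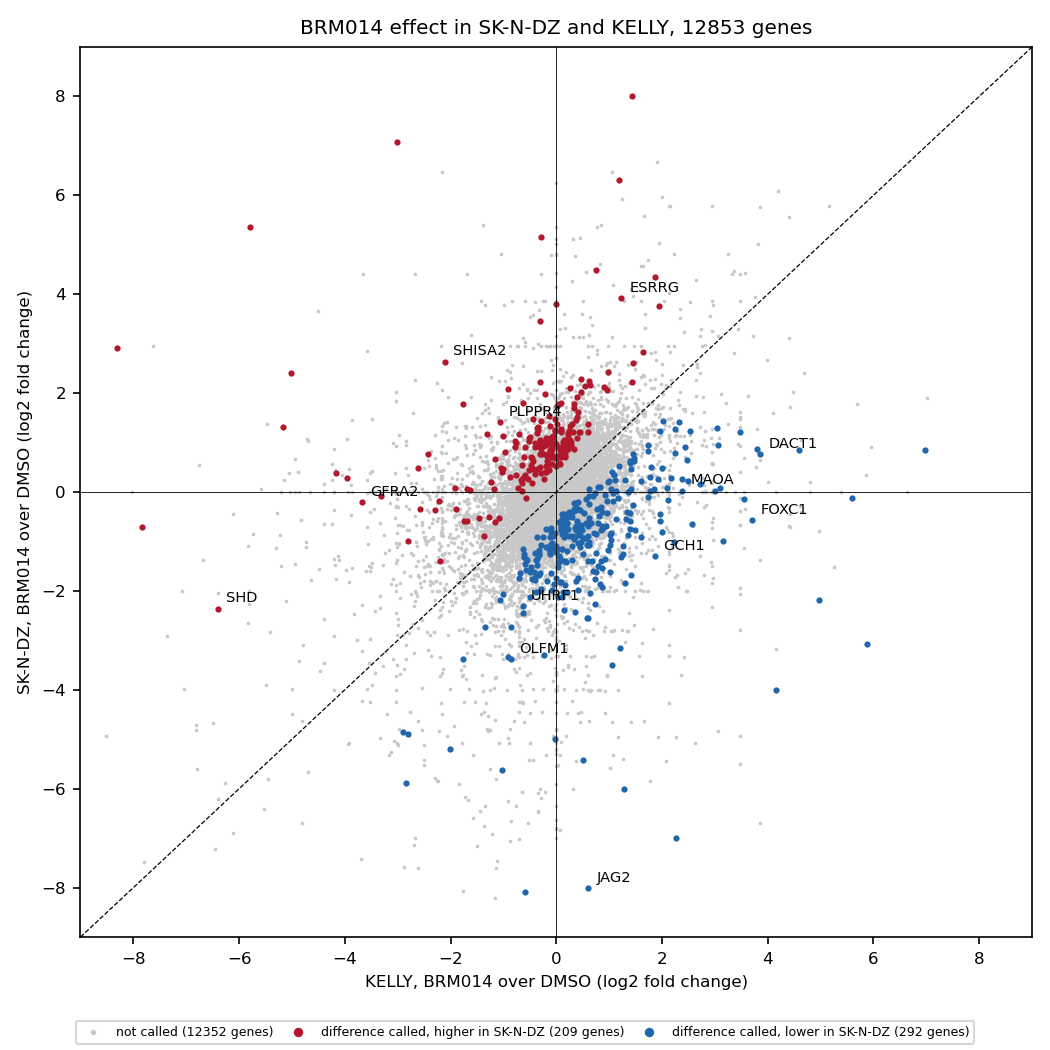
BRM014 effect in SK-N-DZ (vertical axis) against the effect in KELLY (horizontal axis), both as log2 fold changes of BRM014 over DMSO, 1 point per gene tested. The 209 genes called higher in SK-N-DZ lie above the dashed line of equal effects and the 292 called lower lie below it, with SHISA2 and FOXC1 far from it on either side.

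The largest higher difference among well counted genes was that of SHISA2 (chr13:26044597-26051031 on the minus strand, hg38), which encodes a membrane protein of the endoplasmic reticulum that retains Frizzled and FGF receptors. SHISA2 had 210.0 and 234 CPM in SK-N-DZ with BRM014, against 35.3 and 35.8 CPM with DMSO. In KELLY it had 5.88 and 2.56 CPM with BRM014, against 18.0 and 19.0 CPM with DMSO. The BRM014 libraries lay above the DMSO libraries in SK-N-DZ and below them in KELLY. The effect was 2.64 ± 0.34 in SK-N-DZ and -2.11 ± 0.50 in KELLY (log2 ± SE), a difference of 4.75 ± 0.59 (adjusted p = 3.06e-09).

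GFRA2 (chr8:21690403-21812357, minus strand) encodes the receptor that binds neurturin and hands it to RET. In SK-N-DZ it had 362 and 361 CPM with BRM014 and 379 and 456 CPM with DMSO. In KELLY it had 1.96 and 5.12 CPM with BRM014, against 49.8 and 43.4 CPM with DMSO. The SK-N-DZ groups lay close together while the KELLY groups lay far apart: the effect was -0.21 ± 0.14 in SK-N-DZ and -3.68 ± 0.34 in KELLY, and the difference was 3.47 ± 0.38 (adjusted p = 3.69e-11). RET itself, the shared signalling receptor, fell in both lines, to 2 counts in SK-N-DZ with BRM014 against 416 with DMSO (a DMSO to BRM014 ratio of 92.1, interval 25.3 to 763) and by 5.54 in KELLY on the log2 scale, and its difference did not pass (adjusted p = 0.817). FGFR2, another receptor kinase on the list of RET and neurotrophin receptors, had an effect of -0.36 in SK-N-DZ and -2.29 in KELLY, but its difference of 1.92 (adjusted p = 0.0156) no longer passed without the first SK-N-DZ BRM014 or DMSO library or the second KELLY BRM014 or DMSO library (1.58 to 2.40 over the libraries left out). ADRA2A, the alpha-2A adrenergic receptor, had an effect of -0.34 in SK-N-DZ and fell by 2.58 in KELLY, a difference of 2.24 (adjusted p = 0.00374) that was lost without the first SK-N-DZ or the first KELLY BRM014 library (1.73 to 2.63).

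ESRRG, an orphan nuclear receptor of the oestrogen-related family (chr1:216503246-217137755, minus strand), rose in both lines. It had 112 and 107 CPM in SK-N-DZ with BRM014, against 5.39 and 8.81 CPM with DMSO, and 279 and 299 CPM in KELLY with BRM014, against 104 and 145 CPM with DMSO. With BRM014, the SK-N-DZ libraries stood at the level of the KELLY DMSO libraries. The effect was 3.92 ± 0.27 in SK-N-DZ and 1.23 ± 0.15 in KELLY, and the difference was 2.69 ± 0.32 (adjusted p = 6.94e-10). SESN3, a sestrin that restrains growth signalling, also rose in both lines and further in SK-N-DZ: it had 2168 and 1982 CPM in SK-N-DZ with BRM014 and 474 and 466 CPM with DMSO, against 721 and 639 CPM in KELLY with BRM014 and 516 and 414 CPM with DMSO, a difference of 1.59 ± 0.15 (adjusted p = 2.43e-13). COL6A6, a collagen VI chain, rose in SK-N-DZ by 2.08 (log2) with an effect of -0.91 in KELLY (adjusted p of the difference 0.00162). TCF7L2, a nuclear effector of Wnt signalling, rose by 2.22 in SK-N-DZ with an effect of -0.31 in KELLY; the difference of 2.54 (adjusted p = 0.0039) did not pass without the first SK-N-DZ BRM014 library (adjusted p = 0.0615).

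At the other end, FOXC1 (chr6:1609972-1613897, plus strand), a forkhead factor of neural crest and mesenchyme, rose in KELLY. It had 73.1 and 88.4 CPM in SK-N-DZ with BRM014 and 129 and 111 CPM with DMSO, against 125 and 104 CPM in KELLY with BRM014 and 12 and 4.56 CPM with DMSO. The KELLY BRM014 libraries stood at the level of the SK-N-DZ DMSO libraries. The effect was -0.57 ± 0.22 in SK-N-DZ (adjusted p = 0.0538) and 3.71 ± 0.28 in KELLY, a difference of -4.28 ± 0.36 (adjusted p = 8.53e-16). DACT1, a modulator of Wnt signalling, rose in both lines: it had 125 and 143 CPM in SK-N-DZ with BRM014 and 76.1 and 81.0 CPM with DMSO, against 84.9 and 83.2 CPM in KELLY with BRM014 and 4.80 and 6.85 CPM with DMSO. The difference was -3.09 ± 0.42 (adjusted p = 4.38e-08). SYNPO2, an actin-binding protein, likewise rose by 1.22 in SK-N-DZ and by 3.48 in KELLY (adjusted p of the difference 4.9e-08), and PCDH17, a protocadherin, by 0.94 and 3.05 (adjusted p = 0.00143). RND3, an atypical small GTPase that opposes actin stress fibres, had 445 and 442 CPM in SK-N-DZ with BRM014 and 243 and 229.7 CPM with DMSO, against 992 and 1012 CPM in KELLY with BRM014 and 199.7 and 172 CPM with DMSO (difference -1.52 ± 0.17, adjusted p = 3.84e-11).

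OLFM1, a secreted olfactomedin of neurons, moved mainly in SK-N-DZ, where it fell by 3.39 on the log2 scale, to 3.99 and 11.4 CPM with BRM014 against 71.9 and 92 CPM with DMSO. In KELLY it had 18.3 and 11.5 CPM with BRM014 and 23.4 and 31.2 CPM with DMSO, and the difference was -2.53 ± 0.51 (adjusted p = 0.000384). ARHGEF28, a guanine nucleotide exchange factor, had an effect of 0.15 in SK-N-DZ and rose by 2.72 in KELLY (adjusted p of the difference 0.000626), a call that was lost when all libraries were thinned to the smallest (difference -2.01, adjusted p = 0.0666). Among the other genes with the lowest differences, LRRTM2 lost its call without the second SK-N-DZ DMSO library (adjusted p = 0.0973), ZNF283 without 2 of the libraries, MMP15 without 3 and NKD1 without 6; NKD1 also did not pass after correction for transcript length and GC content (adjusted p = 0.0678).

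The promoters of the genes at both ends are shown for reference, from RefSeq on GRCh38.p14, each from 250 bases before to 50 after the RefSeq start, with capitals marking matches on either strand to known motif letters. These were CACGTG for the E-box, TGACTCA for AP-1 (which reads TGAGTCA on the other strand), AGATAA for GATA factors, GGAATG for TEAD factors, and TTTGGCGC or TTTCCCGC for E2F factors; none is contained in another. SHISA2 lies at chr13:26051967-26052266 on the minus strand and FOXC1 at chr6:1609665-1609964 on the plus strand.
SHISA2 promoter: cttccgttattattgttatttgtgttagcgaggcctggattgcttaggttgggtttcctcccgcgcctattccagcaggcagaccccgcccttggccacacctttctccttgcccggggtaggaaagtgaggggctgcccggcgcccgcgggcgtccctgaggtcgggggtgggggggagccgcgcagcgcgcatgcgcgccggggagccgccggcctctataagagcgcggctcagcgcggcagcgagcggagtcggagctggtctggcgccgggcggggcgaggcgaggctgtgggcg
FOXC1 promoter: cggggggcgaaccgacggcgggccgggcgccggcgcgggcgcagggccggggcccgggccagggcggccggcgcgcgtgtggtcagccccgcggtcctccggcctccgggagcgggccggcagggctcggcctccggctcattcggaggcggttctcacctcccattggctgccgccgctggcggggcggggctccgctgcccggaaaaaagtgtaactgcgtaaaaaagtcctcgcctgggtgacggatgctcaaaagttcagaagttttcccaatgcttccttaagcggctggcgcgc
Neither holds any of these letters, and nor do the promoters of COL6A6 and CCDC88C, which were also examined. GFRA2 and GCH1 ranked ahead of COL6A6 and CCDC88C by difference, but their promoters were not examined singly. GC made up 69.7% of the SHISA2 window and 72.7% of the FOXC1 window.

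**Figure D2:**
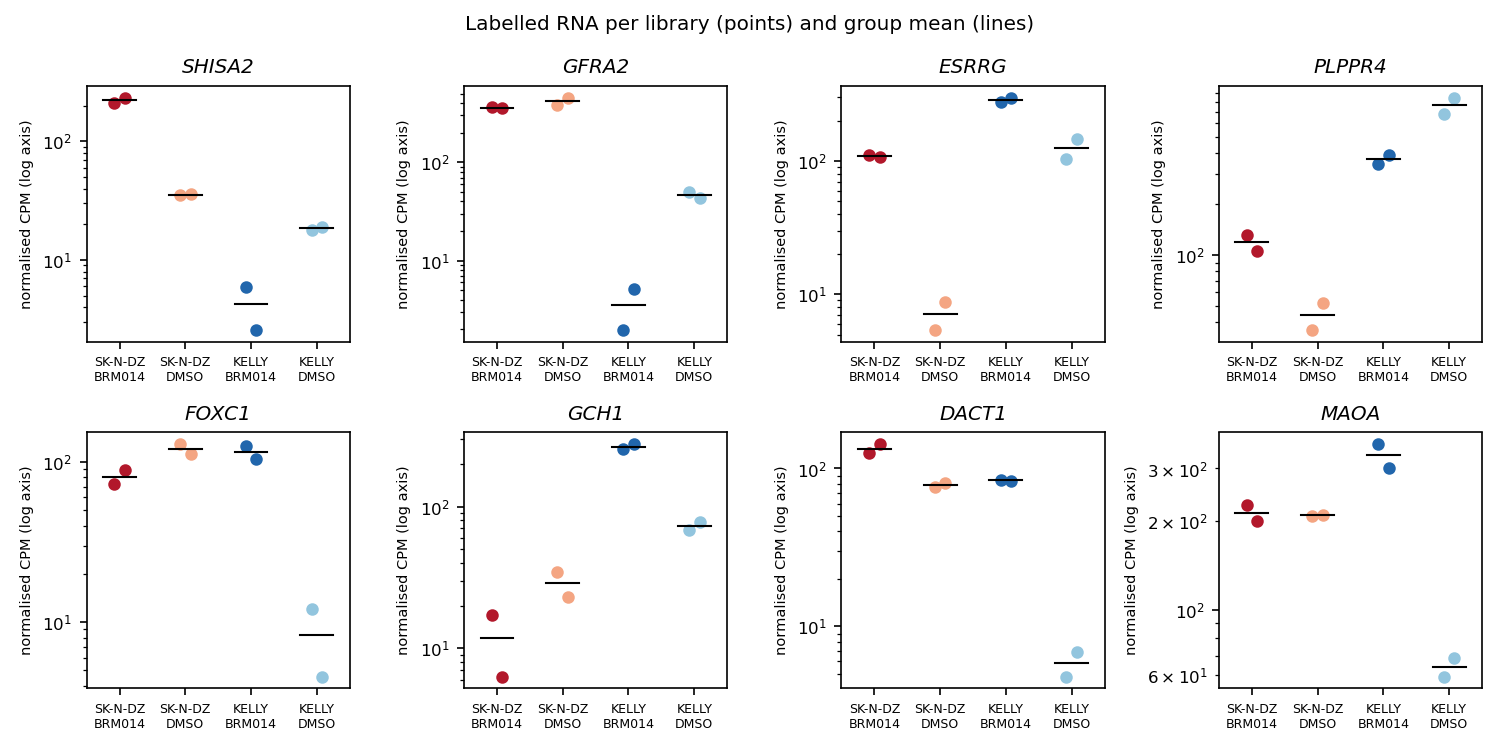
Normalised CPM of 8 genes on a log axis in the 4 groups, with 1 point per library and a line at the group mean. SHISA2 and PLPPR4 rise with BRM014 in SK-N-DZ and fall in KELLY, GFRA2 falls in KELLY, ESRRG and DACT1 rise in both lines, and FOXC1, GCH1 and MAOA rise in KELLY, with GCH1 falling in SK-N-DZ.

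Opposite movement was seen for 31 genes (0.241% of those tested) whose BRM014 effect passed the test in both lines with different signs and whose difference also passed. Of these, 12 rose in SK-N-DZ and fell in KELLY, and 19 fell in SK-N-DZ and rose in KELLY. SHISA2, described above, was the most extreme of the 12. PLPPR4, a neuronal phospholipid phosphatase-related protein of axons and synapses, had 132 and 106 CPM in SK-N-DZ with BRM014, against 35.9 and 52.3 CPM with DMSO, and 346 and 389 CPM in KELLY with BRM014, against 682 and 849 CPM with DMSO. No BRM014 library overlapped the DMSO libraries of its line, and the difference was 2.48 ± 0.24 (adjusted p = 2.43e-13). ENC1, an actin-associated kelch protein of neurons, had an effect of 0.90 in SK-N-DZ and -0.79 in KELLY (adjusted p of the difference 7.79e-10). PRKCA, protein kinase C alpha, had effects of 0.81 and -0.96, LGR4, a receptor for R-spondins, had effects of 0.66 and -1.15, and PMAIP1, the BH3-only protein NOXA, had effects of 0.90 and -0.60, each pair with SK-N-DZ first. GPR19, an orphan receptor, moved likewise, by 1.13 in SK-N-DZ and by -1.01 in KELLY.

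In the reverse direction stood GCH1 (chr14:54842008-54902852, minus strand), which makes the tetrahydrobiopterin that tyrosine hydroxylase needs. It had 17.3 and 6.32 CPM in SK-N-DZ with BRM014, against 34.7 and 23.1 CPM with DMSO. In KELLY it had 254 and 275 CPM with BRM014, against 68.3 and 77.6 CPM with DMSO. The groups did not overlap in either line, and the difference was -3.16 ± 0.44 (adjusted p = 1.3e-07). IGSF3, an immunoglobulin superfamily protein, had 29.2 and 36.6 CPM in SK-N-DZ with BRM014 and 76.1 and 98.0 CPM with DMSO, against 261 and 208 CPM in KELLY with BRM014 and 141 and 117 CPM with DMSO (difference -2.25 ± 0.29, adjusted p = 1.22e-08). SLC1A2, the glutamate transporter EAAT2, had effects of -0.82 in SK-N-DZ and 1.03 in KELLY, and EFNB2, the ligand ephrin-B2, had effects of -1.35 in SK-N-DZ and 0.93 in KELLY. CCDC88C, SIPA1L2 and NCR3LG1 also moved in this direction, with differences of -3.15, -2.16 and -1.88. A test against a difference of at least 1 passed for 28 genes, and then none of the genes had both line effects passing in opposite directions.

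The wild-type IMR-32 line, whose libraries do not enter the difference, shows where a further line stood. Its own BRM014 effect over DMSO passed the test for 1650 genes (12.8%), of which 805 rose (6.26%) and 845 fell (6.57%). Of the 12 genes up in SK-N-DZ and down in KELLY, 3 rose in IMR-32 and 4 fell; of the 19 in the reverse direction, none rose and 3 fell. PRKCA rose by 1.37 (log2) in IMR-32 and PLPPR4 fell by 1.17. Of all 209 genes higher in SK-N-DZ, IMR-32 rose in 60 and fell in 21, with a median effect of 0.27; of the 292 lower genes, it rose in 46 and fell in 91, with a median of -0.23. The IMR-32 effect lay between those of the other lines for 136 of the 209 genes and 196 of the 292. These genes were selected for a gap between the SK-N-DZ and KELLY effects, which leaves room for a further line to fall between. The same count was not made over all genes tested, so it does not show which line IMR-32 resembled.

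**Figure D3:**
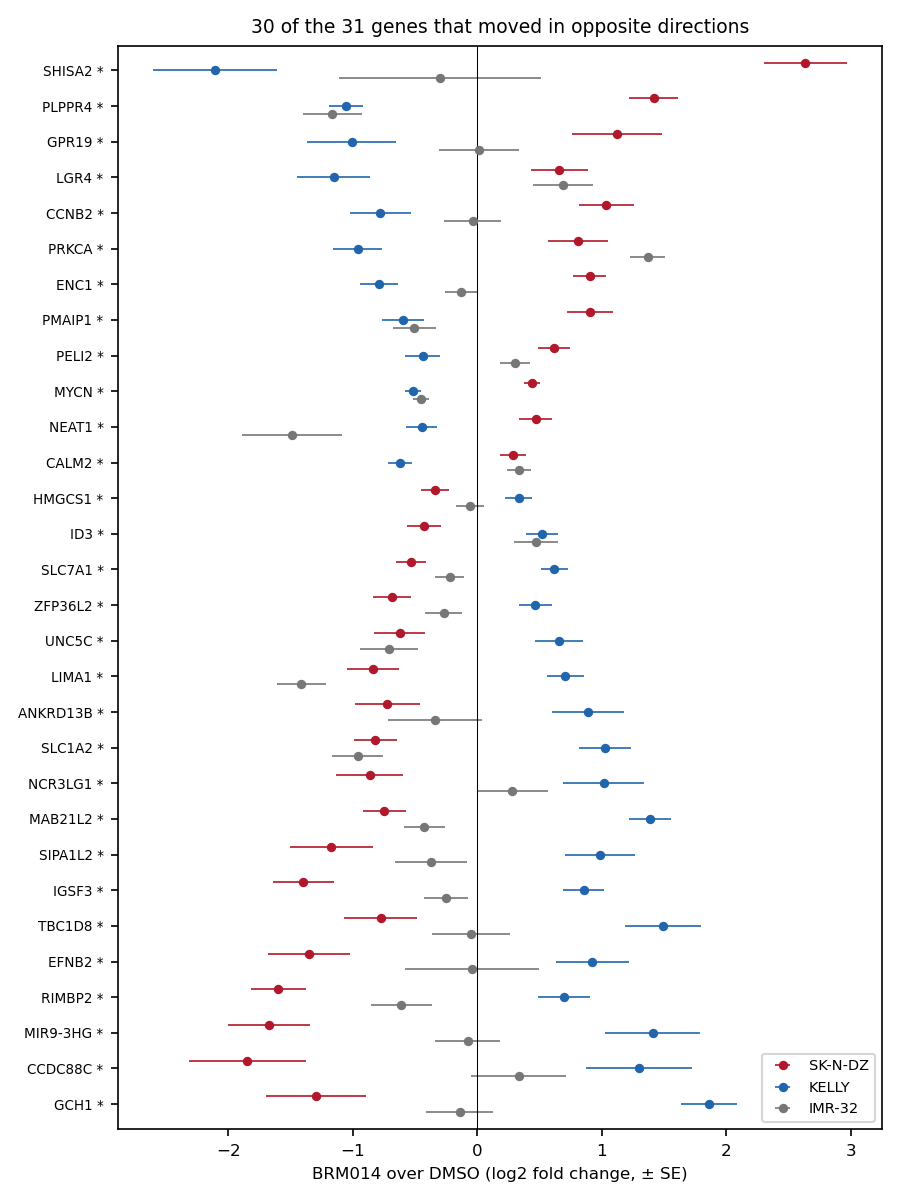
BRM014 effect of 30 of the 31 opposite genes in SK-N-DZ, KELLY and IMR-32, as log2 fold changes with standard errors, 1 row per gene, ordered by the difference. The upper 12 genes are positive in SK-N-DZ and negative in KELLY and the others the reverse, while IMR-32 falls on either side.

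A few genes were all but absent from 1 group and are given by counts. LHX9, a LIM-homeobox factor, had 38 counts in the SK-N-DZ BRM014 libraries and none with DMSO, at least 28.6-fold higher when the empty group is set to a floor of 3 counts in all, and in KELLY it had 61.4 and 73.6 CPM with BRM014 against 27.0 and 22.8 CPM with DMSO (adjusted p of the difference 4.28e-05). OLFM3, an olfactomedin of neurons, had 82 counts in SK-N-DZ with BRM014 and 2 with DMSO, a ratio of normalised levels of 92.6 (95% counting interval 24.8 to 777), beside 38.5 and 42.9 CPM in KELLY with BRM014 and 16.2 and 19.8 CPM with DMSO. JAG2, a Notch ligand, had no counts in SK-N-DZ with BRM014 and 86 with DMSO, at least 12.7-fold lower, while in KELLY it had 23.5 and 31.4 CPM with BRM014 and 19.2 and 16.7 CPM with DMSO (adjusted p = 0.000145). SHD, an adaptor protein, fell in both lines, to 18.6 and 34.1 CPM in SK-N-DZ with BRM014 against 132 and 139.9 CPM with DMSO, and in KELLY to 2 counts with BRM014 against 192 with DMSO, a DMSO to BRM014 ratio of 99.6 (27.2 to 828). The fitted differences of OLFM3 and SHD moved by over 1.5 times, OLFM3 to 7.91 without the first SK-N-DZ DMSO library and SHD to 6.99 without the first KELLY BRM014 library, where a group was left at 0 counts. Thinned to the smallest library, the difference of OLFM3 was 7.89, and that of SHD was 2.83 and did not pass (adjusted p = 0.093).

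The adrenergic transcription factors did not move as a block. Of 29 tested, 9 had a higher effect in SK-N-DZ and 4 a lower one, with a median difference of 0.14, beside 1.63% higher, 2.27% lower and a median of -0.03 over all genes tested. MYCN (chr2:15940564-15947007, plus strand), the amplified oncogene, had 8138 and 8409 CPM in SK-N-DZ with BRM014 and 5956 and 6248 CPM with DMSO. In KELLY it had 4803 and 4398 CPM with BRM014 and 7209 and 5966 CPM with DMSO. MYCN rose in SK-N-DZ and fell in KELLY with no overlap between the groups of a line: the effects were 0.44 ± 0.06 and -0.52 ± 0.06, and the difference was 0.96 ± 0.09 (adjusted p = 3.14e-14), or 1.17 after correction for transcript length and GC content. The unlabelled KELLY libraries held 46 MYCN counts, and MYCN overlaps an antisense gene whose reads may not have been told apart from its own.

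GATA2, a zinc finger factor, fell in both lines but further in KELLY: it had 328 and 370.1 CPM in SK-N-DZ with BRM014 and 893 and 936 CPM with DMSO, against 333 and 294 CPM in KELLY with BRM014 and 1505 and 1378 CPM with DMSO (difference 0.81 ± 0.16, adjusted p = 0.000273). The BRM014 libraries lay below the DMSO libraries in both lines. HAND1 also fell further in KELLY, with a difference of 0.94 (adjusted p = 0.00106); it was 0.56 without the first KELLY BRM014 library (adjusted p = 0.14) and 1.45 without the second. GATA3, on the other hand, rose by 0.58 in SK-N-DZ with an effect of 0.06 in KELLY; its difference of 0.52 (adjusted p = 0.0126) was lost without the second SK-N-DZ BRM014, SK-N-DZ DMSO or KELLY BRM014 library (0.37 to 0.68). Also higher were LHX9, SIX3, TBX3 and INSM2, of which SIX3 lost its call without 3 libraries, TBX3 without 1 (the second SK-N-DZ BRM014 library, adjusted p = 0.085) and INSM2 without 5.

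Of the 4 lower genes, the lowest was ISL1. ISL1, a LIM-homeobox factor of sympathetic neurons, had 589 and 676 CPM in SK-N-DZ with BRM014 and 469 and 421 CPM with DMSO, against 1269 and 1357 CPM in KELLY with BRM014 and 361 and 399 CPM with DMSO, a difference of -1.28 ± 0.15 (adjusted p = 4.92e-10). It rose in both lines and the KELLY ratios lay above the SK-N-DZ ratios. SOX4 rose in both lines, by 1.23 in SK-N-DZ and by 1.96 in KELLY. Its difference of -0.73 became -0.40 and did not pass when all libraries were thinned to the smallest (adjusted p = 0.276). KLF7 rose in KELLY by 0.82 with an effect of 0.11 in SK-N-DZ. For PHOX2A, HAND2 and TBX2 the difference did not pass, at 0.13 ± 0.16, 0.12 ± 0.14 and 0.12 ± 0.19; TBX2 fell by 1.69 in SK-N-DZ and by 1.80 in KELLY. These 3 estimates changed sign when certain libraries were left out.

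Of 19 genes of noradrenergic function tested, 9 fell and none rose in SK-N-DZ, and 9 fell and 2 rose (GCH1 and MAOA) in KELLY, beside 9.55% of all genes tested that fell in SK-N-DZ and 4.98% that fell in KELLY. The difference was lower in SK-N-DZ for 5 of them and higher for none, with a median of -0.54. These were GCH1, described above, and MAOA, DBH, CYB561 and SLC6A2. MAOA (chrX:43654907-43746824, plus strand), the monoamine oxidase that breaks down noradrenaline, had 226 and 199.6 CPM in SK-N-DZ with BRM014 and 208 and 209 CPM with DMSO, against 363 and 302 CPM in KELLY with BRM014 and 59.4 and 68.5 CPM with DMSO. The SK-N-DZ groups overlapped and the KELLY groups did not, and the difference was -2.35 ± 0.29 (adjusted p = 1.52e-09). TH, the rate-limiting enzyme of catecholamine synthesis, had no counts in SK-N-DZ with BRM014 and 59 with DMSO, at least 8.71-fold lower, and 1 count in KELLY with BRM014 against 286 with DMSO, a DMSO to BRM014 ratio of 297 (52.8 to 1.18e+04). DBH, which converts dopamine to noradrenaline, fell by 4.86 in SK-N-DZ and by 2.90 in KELLY (difference -1.96, adjusted p = 0.0245). The calls of DBH, CYB561 and SLC6A2 were lost after correction for length and GC content (adjusted p = 0.0856, 0.0563 and 0.116) and without 6, 2 and 4 of the libraries; that of SLC6A2 ranged from -1.45 to -0.33, at both ends with a SK-N-DZ BRM014 library left out. The count of 5 was then 2 with that correction, 3 without the first KELLY DMSO library, 2 and 3 without the first and the second SK-N-DZ BRM014 library, and 3 without the second SK-N-DZ DMSO library.

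**Figure D4:**
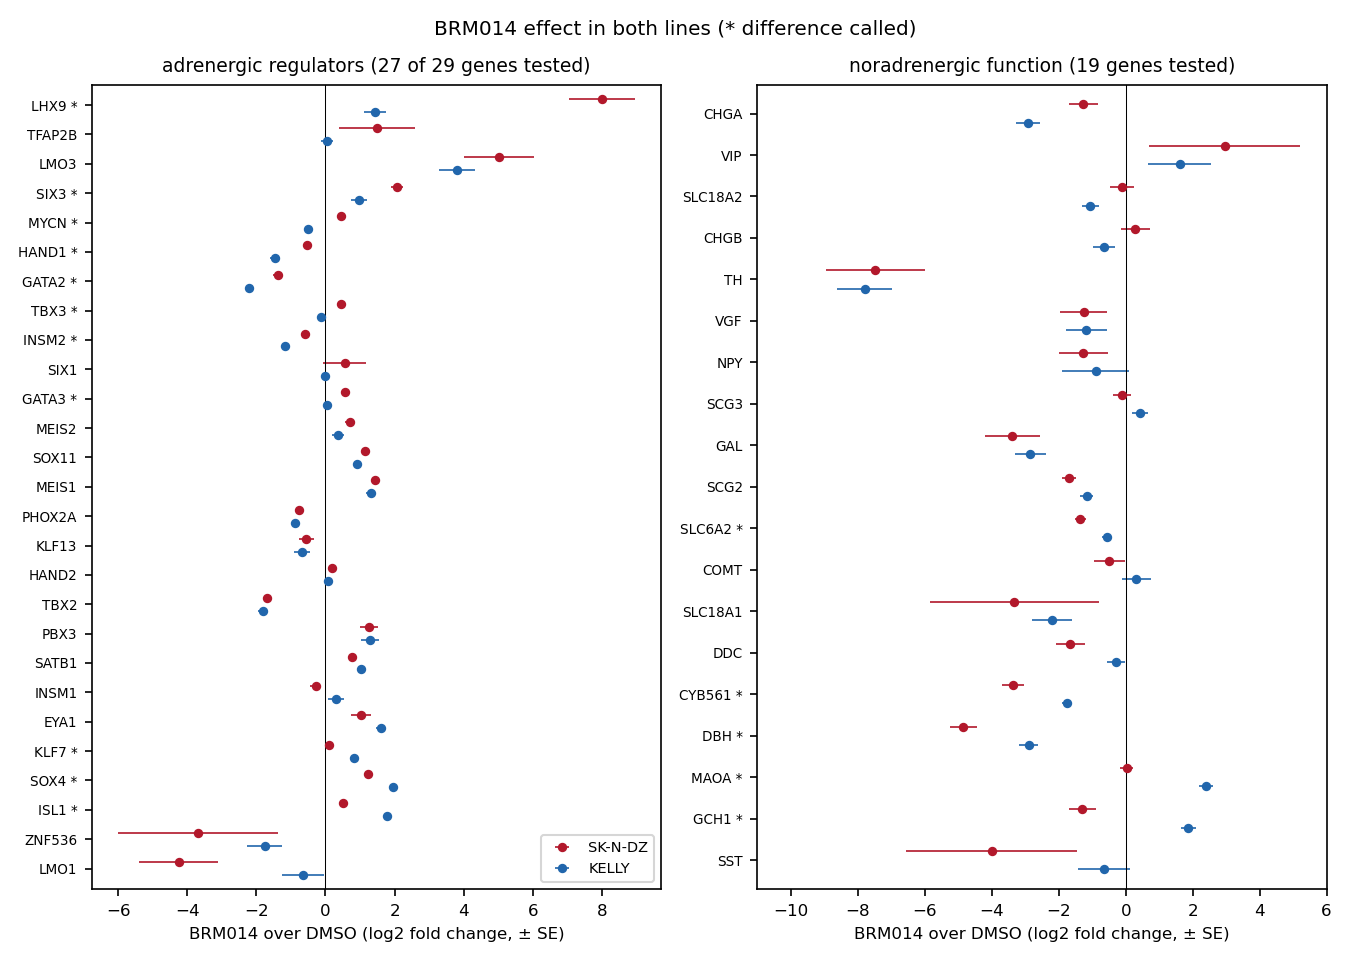
BRM014 effect in SK-N-DZ and KELLY, as log2 fold changes with standard errors, for 27 of the 29 adrenergic regulators (left) and 19 genes of noradrenergic function (right), with an asterisk where the difference passed. MYCN is positive in SK-N-DZ and negative in KELLY, ISL1 is more positive in KELLY, and GCH1 and MAOA are positive in KELLY, with MAOA near 0 and GCH1 negative in SK-N-DZ.

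Cell cycle genes split by phase. Of 31 genes of G2/M and mitosis tested, 17 rose in SK-N-DZ and 1 fell, while none rose in KELLY and 5 fell. Over all genes tested, 9.88% rose and 9.55% fell in SK-N-DZ, and 6.57% rose and 4.98% fell in KELLY. The difference was higher in SK-N-DZ for 13 of the 31 and lower for none, with a median of 0.71. It was higher for 1.63% and lower for 2.27% of all genes tested. CDK1, the mitotic cyclin-dependent kinase (chr10:60778331-60794852, plus strand), had 347 and 328 CPM in SK-N-DZ with BRM014 and 186 and 167 CPM with DMSO, against 251 and 279.8 CPM in KELLY with BRM014 and 314 and 314 CPM with DMSO, a difference of 1.18 ± 0.18 (adjusted p = 1.98e-06). ASPM, a spindle pole protein, had 552 and 459.8 CPM in SK-N-DZ with BRM014 and 263 and 252 CPM with DMSO, against 306 and 315 CPM in KELLY with BRM014 and 377 and 329 CPM with DMSO (difference 1.16 ± 0.16, adjusted p = 1.3e-07). For both genes the groups separated in SK-N-DZ, upwards with BRM014, and the KELLY values with BRM014 lay below those with DMSO without that effect passing the test. TOP2A, topoisomerase II alpha, rose by 0.72 in SK-N-DZ with an effect of -0.07 in KELLY (adjusted p of the difference 0.000142), and CCNB2, cyclin B2, rose by 1.04 in SK-N-DZ and fell by 0.78 in KELLY (adjusted p of the difference 6.66e-05). MKI67 fell in KELLY by 0.57 with an effect of -0.12 in SK-N-DZ; its difference of 0.45 (adjusted p = 0.0425) was lost without any of 7 libraries (0.40 to 0.51). The 13 became 7 without the first KELLY BRM014 or the first KELLY DMSO library, 8 without the first SK-N-DZ BRM014 or the first SK-N-DZ DMSO library, and 7 when all libraries were thinned to the smallest.

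Of 34 genes of DNA replication and E2F targets tested, 27 fell in SK-N-DZ and 17 in KELLY, and none rose in either line. Of all genes tested, 9.55% fell in SK-N-DZ and 4.98% in KELLY. The difference was lower in SK-N-DZ for 8 and higher for none, with a median of -0.49, beside 2.27% lower and 1.63% higher over all genes. UHRF1, which couples replication to DNA methylation (chr19:4903080-4962154, plus strand), had 45.2 and 61.9 CPM in SK-N-DZ with BRM014 and 261 and 272 CPM with DMSO, against 90.2 and 99.9 CPM in KELLY with BRM014 and 160.1 and 135 CPM with DMSO, a difference of -1.67 ± 0.27 (adjusted p = 7.26e-06). MCM2, a subunit of the replicative helicase, had 98.4 and 124 CPM in SK-N-DZ with BRM014 and 323 and 342 CPM with DMSO, against 252 and 231 CPM in KELLY with BRM014 and 356 and 366 CPM with DMSO (difference -0.998 ± 0.21, adjusted p = 0.000658). In both genes every BRM014 library lay below the DMSO libraries of its line, by a wider margin in SK-N-DZ. The other 6 were MCM3, GINS2, GINS3, CDC6, POLE and E2F1, each of which lost its call without at least 1 library. The 8 became 3 without the first and 4 without the second SK-N-DZ DMSO library, 4 without the first SK-N-DZ BRM014 library, 5 without the second KELLY BRM014 library or either KELLY DMSO library, and 4 when thinned. Among G1 regulators, CDK6 fell by 0.65 in KELLY with an effect of 0.02 in SK-N-DZ (adjusted p of the difference 1.91e-05). CCND1, cyclin D1, fell by 1.07 in SK-N-DZ and by 0.99 in KELLY, with a difference of -0.07 ± 0.11 (adjusted p = 0.866). CDKN1A, the inhibitor p21, fell in both lines, by 4.89 in SK-N-DZ and by 2.80 in KELLY (difference -2.09, adjusted p = 0.0426), a call that was lost without any of 6 libraries (-7.72 to -1.14 over the libraries left out, the ends without the second and the first SK-N-DZ BRM014 library) and after the correction for length and GC content (adjusted p = 0.0914).

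**Figure D5:**
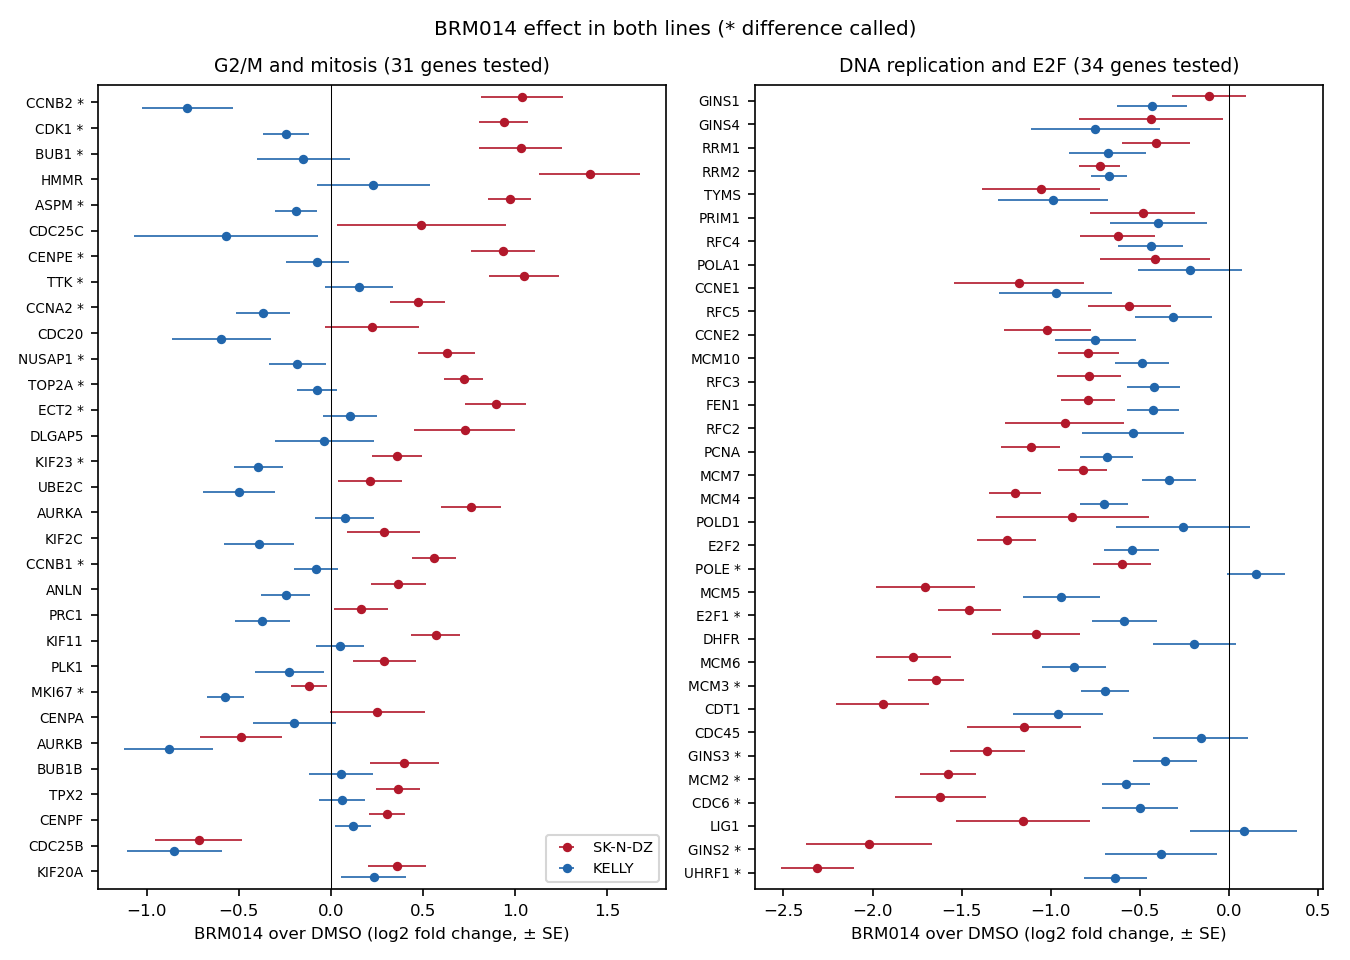
BRM014 effect in SK-N-DZ and KELLY, as log2 fold changes with standard errors, for 31 genes of G2/M and mitosis (left) and 34 genes of DNA replication and E2F targets (right), with an asterisk where the difference passed. On the left most SK-N-DZ values are positive and most KELLY values lie near or below 0, and on the right both lines are mostly negative, SK-N-DZ further.

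E2F factors drive replication genes, and the letters TTTGGCGC or TTTCCCGC on either strand were found in the promoters of 14 of the 23 replication genes with a RefSeq entry. They were in 12 of the 140 promoters of genes lower in SK-N-DZ (8.57%) and 4 of the 116 of genes higher in SK-N-DZ (3.45%), beside 3.99% of the 6943 tested genes with an entry and 2.23% of all 22114 promoters. Of those 12 genes, 6 were on the replication list, and MYCN was among the 4. The promoters of MYCN, GINS2 (part of the helicase complex) and CDC6 (which loads the helicase) are shown because each holds 1 match, in capitals. They lie at chr2:15940300-15940599 on the plus strand, chr16:85688905-85689204 on the minus strand and chr17:40287629-40287928 on the plus strand. These genes were chosen for display after their values were seen.
MYCN promoter: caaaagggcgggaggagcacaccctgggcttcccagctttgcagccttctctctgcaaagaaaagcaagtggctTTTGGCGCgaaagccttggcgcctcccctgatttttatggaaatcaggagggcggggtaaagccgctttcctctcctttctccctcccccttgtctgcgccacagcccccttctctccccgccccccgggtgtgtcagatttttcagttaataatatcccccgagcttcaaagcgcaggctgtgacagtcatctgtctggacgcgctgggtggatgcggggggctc
GINS2 promoter: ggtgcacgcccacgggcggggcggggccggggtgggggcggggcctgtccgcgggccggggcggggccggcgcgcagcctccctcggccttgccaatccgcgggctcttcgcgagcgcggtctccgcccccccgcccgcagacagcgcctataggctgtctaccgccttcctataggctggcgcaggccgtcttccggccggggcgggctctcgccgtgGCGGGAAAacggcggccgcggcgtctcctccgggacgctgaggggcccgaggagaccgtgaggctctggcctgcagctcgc
CDC6 promoter: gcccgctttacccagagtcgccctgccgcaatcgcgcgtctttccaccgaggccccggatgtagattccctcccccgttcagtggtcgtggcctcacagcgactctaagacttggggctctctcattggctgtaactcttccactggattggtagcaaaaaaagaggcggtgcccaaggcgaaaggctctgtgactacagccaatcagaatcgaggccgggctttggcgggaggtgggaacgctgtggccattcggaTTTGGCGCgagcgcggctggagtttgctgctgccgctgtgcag
The match begins 176 bases before the start of MYCN, 31 before that of GINS2 and 7 after that of CDC6. GINS2 had 17.3 and 30.3 CPM in SK-N-DZ with BRM014 and 97.0 and 97.5 CPM with DMSO, against 39.9 and 44.8 CPM in KELLY with BRM014 and 46.2 and 64.7 CPM with DMSO (difference -1.64, adjusted p = 0.0286, lost without 6 of the libraries). CDC6 had 55.8 and 32.8 CPM in SK-N-DZ with BRM014 and 139.6 and 132 CPM with DMSO, against 95.4 and 89.6 CPM in KELLY with BRM014 and 101 and 163 CPM with DMSO (difference -1.12, adjusted p = 0.0375, lost without 6). Shares of the other letters were 11.2% and 11.4% for the E-box in the higher and the lower genes (10.8% of the tested genes), 3.45% and 1.43% for AP-1 (2.41%), 4.31% and 5% for GATA (4.34%) and 12.9% and 7.14% for TEAD (10.2%). A match is only a run of letters and not a measured site.

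Genes of cholesterol synthesis and transport had a lower effect in SK-N-DZ for 5 of 24 tested and a higher one for none, with a median of -0.44. In SK-N-DZ 2 rose and 6 fell, and in KELLY 7 rose and none fell. Among all genes tested, 9.88% rose and 9.55% fell in SK-N-DZ, and 6.57% rose and 4.98% fell in KELLY. A lower difference was called for 2.27% of them and a higher one for 1.63%. STARD4, a cytosolic cholesterol carrier, had 209 and 199.6 CPM in SK-N-DZ with BRM014 and 259 and 243 CPM with DMSO, against 798 and 802 CPM in KELLY with BRM014 and 416 and 472 CPM with DMSO, a difference of -1.15 ± 0.17 (adjusted p = 2.95e-07). KELLY with BRM014 stood clear of its controls, while the SK-N-DZ effect of -0.30 did not pass. HMGCS1, which makes the substrate of the rate-limiting step, fell by 0.34 in SK-N-DZ and rose by 0.33 in KELLY (adjusted p of the difference 0.00229). MSMO1 lost its call without the first SK-N-DZ DMSO library (adjusted p = 0.0818), INSIG1 without 5 libraries, and the count of 5 was 3 without the first SK-N-DZ DMSO library.

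Axon guidance genes had a lower effect in SK-N-DZ for 11 of 43 tested and a higher one for none, with a median of -0.34. In SK-N-DZ 10 rose and 10 fell, and in KELLY 16 rose and 6 fell. All genes tested gave 9.88% rising and 9.55% falling in SK-N-DZ, and 6.57% rising and 4.98% falling in KELLY. Their difference was lower for 2.27% and higher for 1.63%. NRP2, a receptor for class 3 semaphorins, had 397 and 397 CPM in SK-N-DZ with BRM014 and 151 and 186 CPM with DMSO, against 238 and 236 CPM in KELLY with BRM014 and 37.8 and 44.9 CPM with DMSO, a difference of -1.29 ± 0.24 (adjusted p = 8.65e-05). EFNA5, the ligand ephrin-A5, had 233 and 194 CPM in SK-N-DZ with BRM014 and 135 and 112 CPM with DMSO, against 193 and 207 CPM in KELLY with BRM014 and 45.0 and 38.0 CPM with DMSO (difference -1.47 ± 0.25, adjusted p = 1.55e-05). Both rose in both lines, and the KELLY DMSO libraries were the lowest of all. UNC5C, a netrin receptor, and EFNB2 instead moved in opposite directions, UNC5C by -0.62 in SK-N-DZ against 0.66 in KELLY and EFNB2 by -1.35 against 0.93. The difference of UNC5C, -1.28, became -0.91 and did not pass when thinned (adjusted p = 0.136). The 11 became 6 without the first KELLY DMSO or the second SK-N-DZ BRM014 library, 4 without the second SK-N-DZ DMSO library, and 7 after the correction for length and GC content, which also moved the median to -0.06.

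Other neuronal genes followed their own course. SYT1, the calcium sensor of synaptic vesicles, had 822 and 731 CPM in SK-N-DZ with BRM014 and 473 and 486 CPM with DMSO, against 386 and 315 CPM in KELLY with BRM014 and 130.1 and 122 CPM with DMSO (difference -0.77 ± 0.16, adjusted p = 0.000383). Its relative SYT4 rose by 1.38 in SK-N-DZ with an effect of 0.30 in KELLY, and its difference was 1.08 ± 0.22 (adjusted p = 0.000383). Of 37 channel and synaptic vesicle genes tested, 1 was higher and 4 were lower, beside 1.63% and 2.27% of all genes tested.

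IGF1R and IRS2 rose in KELLY, and their effects in SK-N-DZ did not pass. IGF1R, the IGF-1 receptor, had 223 and 198 CPM in SK-N-DZ with BRM014 and 196 and 221 CPM with DMSO, against 186 and 191 CPM in KELLY with BRM014 and 95.3 and 76.8 CPM with DMSO (difference -1.11 ± 0.25, adjusted p = 0.0015). IRS2, its adaptor, had 114 and 109 CPM in SK-N-DZ with BRM014 and 102 and 120.1 CPM with DMSO, against 313 and 288 CPM in KELLY with BRM014 and 131 and 103 CPM with DMSO (difference -1.35 ± 0.28, adjusted p = 0.00063). For both, the SK-N-DZ groups overlapped and the KELLY groups did not. TWIST1, a neural crest and mesenchymal regulator, rose by 1.41 in KELLY with an effect of 0.06 in SK-N-DZ (adjusted p of the difference 1.88e-06), and SNAI1, a repressor of epithelial genes, fell by 1.88 in SK-N-DZ with an effect of 0.17 in KELLY (difference -2.05, adjusted p = 8.88e-05; -1.34 when thinned, adjusted p = 0.107). Of 15 mesenchymal regulators tested, 1 was higher and 3 were lower (1 when thinned), beside 1.63% and 2.27% of all genes tested. The higher one, ZEB2, lost its call without the first KELLY DMSO library (difference 1.46).

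Genes of the BMP, TGF-beta, Wnt and matrix lists with a difference were mostly lower in SK-N-DZ. Their counts stand beside 2.27% lower and 1.63% higher over all genes tested. On the BMP and TGF-beta list 4 of 20 were lower and none higher: BAMBI, a decoy receptor, had 53.2 and 31.6 CPM in SK-N-DZ with BRM014 and 148 and 134 CPM with DMSO, against 83.6 and 69.2 CPM in KELLY with BRM014 and 84.5 and 68.5 CPM with DMSO (difference -1.73 ± 0.30, adjusted p = 1.83e-05). ID3, a target of BMP signalling, fell by 0.43 in SK-N-DZ and rose by 0.52 in KELLY. ID1 lost its call without the second KELLY DMSO library (adjusted p = 0.0779) and TGFB2, with no counts in SK-N-DZ with BRM014 and 21 with DMSO, without 5 libraries. The 4 became 2 without the second KELLY DMSO library and 2 when thinned. On the Wnt list 2 of 24 (TCF7L2 and LGR4) were higher and 5 lower, and the 5 became 1 to 3 without any single library other than the second KELLY BRM014 library, and 2 after the correction for length and GC content. On the matrix list 6 of 31 were lower and none higher, and the 6 became 3 without either KELLY BRM014 library, the second KELLY DMSO library or the second SK-N-DZ BRM014 library, 2 without the second SK-N-DZ DMSO library, and 3 when thinned. LAMB1, a laminin chain, fell by 2.00 in SK-N-DZ with an effect of -0.31 in KELLY (adjusted p of the difference 3.98e-05), and TIMP2, an inhibitor of metalloproteinases, fell by 1.63 with an effect of -0.10 (adjusted p = 2.8e-06), although the unlabelled KELLY libraries held 65 of its counts.

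Of 20 cadherins and protocadherins tested, 2 were higher and 3 lower, with a median of -0.41. In SK-N-DZ 6 rose and 2 fell, and in KELLY 8 rose and 1 fell. Over all genes tested the difference was higher for 1.63% and lower for 2.27%. In SK-N-DZ 9.88% of all genes tested rose and 9.55% fell, and in KELLY 6.57% rose and 4.98% fell. PCDH17, a protocadherin, rose by 0.94 in SK-N-DZ and by 3.05 in KELLY (difference -2.11 ± 0.47, adjusted p = 0.00143). FAT4, a giant cadherin that binds DCHS1, rose by 3.77 in SK-N-DZ and by 1.95 in KELLY. Its difference of 1.82 (adjusted p = 0.0143) was lost without 3 of the libraries and was 2.97 when thinned. FAT1, of the same family, fell by 1.19 in SK-N-DZ with an effect of 0.20 in KELLY (adjusted p of the difference 0.00145). Its difference of -1.39 was -2.27 without the first and -0.83 without the second SK-N-DZ BRM014 library. It did not pass without the second (adjusted p = 0.168) or when thinned (adjusted p = 0.0933). PCDH1 (higher) lost its call without 2 libraries and FAT3 (lower) without any of the 8. The 2 higher genes became none without the first KELLY DMSO library. The 3 lower became 1 without the second SK-N-DZ BRM014 library, and 1 when thinned.

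The counts of the remaining lists stand beside 1.63% of all genes tested with a higher difference and 2.27% with a lower one, and 9.55% and 4.98% that fell in SK-N-DZ and in KELLY. Of 30 SWI/SNF (BAF) subunits, none was higher and 2 were lower: ACTB, which is also cytoplasmic actin, fell by 0.84 in SK-N-DZ with an effect of -0.02 in KELLY (adjusted p of the difference 1.54e-07), with 287 counts in the unlabelled libraries, and BCL7A lost its call without 5 libraries. Of 18 heat shock genes 2 were lower, HSPA8 and HSP90AB1, which fell in both lines and further in SK-N-DZ. Of 71 cytoplasmic ribosomal protein genes 31 fell in SK-N-DZ and 12 in KELLY, and the difference passed for RPS3A and RPL28 (both lower, and both lost without at least 2 libraries), with a median of -0.27; their reads can be split with pseudogenes. Of 30 nucleolar ribosome biogenesis genes 13 fell in SK-N-DZ and 3 in KELLY, and the difference passed for NOP2 alone, which lost its call without 3 libraries. Of 28 Polycomb subunits 2 were lower (CBX2 and BCOR, both lost without the second KELLY DMSO library), and of 25 p53 targets 2 were higher and 1 was lower. Of 27 genes of the ATF4 and unfolded protein response 1 was lower, and of 25 immediate early genes 1 was higher. Of 29 nuclear receptors 2 were higher, ESRRG and PPARG; PPARG had 3 counts in KELLY with BRM014 and 49 with DMSO, and lost its call without the first KELLY BRM014 or the second SK-N-DZ BRM014 library. Of 24 glycolysis genes 2 were lower, PFKP and TPI1, and TPI1 lost its call without 4 libraries. DKK1, a secreted Wnt inhibitor, rose in both lines, by 3.56 in SK-N-DZ and by 2.90 in KELLY, with a difference of 0.65 ± 0.23 (adjusted p = 0.109). That difference ranged from 0.25 to 1.28 over the libraries left out, and whether it passed depended on the library.

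Base composition moved with the direction of the difference. The median GC content of the longest transcript was 41.6% for the 209 higher genes, 49.5% for the 292 lower genes and 47.8% for the 12352 genes not called, and the median transcript lengths were 5216, 4883 and 3496 bases. In the fifth of genes with the lowest GC content (30.2% to 40.2%), the median effect was 0.35 in SK-N-DZ and 0.21 in KELLY, with 80 genes called higher and 40 lower. In the fifth with the highest (56.4% to 75.3%), it was -0.56 in SK-N-DZ and -0.32 in KELLY, with 10 called higher and 68 lower. The slope against GC content thus ran the same way in both lines and was steeper in SK-N-DZ, and its part in the results was not tested. With the length and GC trend of each library removed, 428 genes were called, 199 higher and 229 lower, of which 380 were among the 501 with the same direction; their median GC content was 44.3% and 45.6%. The counts of lists under this correction were 9 higher and 4 lower for adrenergic regulators, 11 and 0 for G2/M and mitosis, 0 and 7 for DNA replication and 0 and 6 for cholesterol synthesis.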

How the data were processed

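Each of the 18 deposited files holds raw counts per gene symbol, whole numbers that the authors made before deposit; per the submitters' processing notes, HISAT, HTSeq, DESeq2 and the build hg38 were used, without versions or roles; the sources used here name neither the annotation nor a strand setting. Genes that overlap, lie antisense or have near-identical copies are therefore uncertain. Reads without a feature (47.7% to 55.6% of the total in the 8 libraries) and ambiguous reads (1.35% to 1.71%) entered neither the library sizes nor the fits. Groups and replicate numbers came from the sample labels.

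The counts entered edgeR 4.0.16 (quasi-likelihood test, R 4.3.3) with TMM scaling and the filterByExpr filter, in a group-means model of all 16 labelled libraries with 8 residual degrees of freedom, so that 4 libraries of wild-type IMR-32 cells and 4 of the engineered IMR-32 SMARCA4-mAID line (auxin or ethanol) share the estimate of the spread (biological coefficient of variation 0.143). P-values were adjusted by Benjamini-Hochberg over the 12853 genes. A shift common to all genes of a library would not show in these log2 fold changes. The replicate numbers were not treated as pairs. Gene coordinates and transcript composition are from GENCODE on GRCh38, and promoters are from RefSeq. Where a group had no counts, it was set to 3 counts in all for a lower bound; with 1 to 3 counts, an exact binomial 95% interval is given. Both cover counting error only. The depth of 724913 to 1740475 counts limits the precision. In the simulation, where all genes shared 1 spread (0.143), 4.17% of the calls were false, a share that need not hold for the real calls.

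The genes described in detail were drawn from several sets, not every member of which is described. The first set was the 12 highest and 12 lowest differences with at least 10 counts in each of the 4 groups, a mean of at least 50 in the highest and non-overlapping ratios. Further sets were 5 in each direction nearly absent from a group, 8 in each direction that moved in opposite directions, and 4 in each direction that moved the same way in both lines. The last were up to 4 with the smallest p in each of 35 lists, and 16 fixed genes. SESN3, RND3 and other list members that are named to complete a small count were chosen after their values were seen. Some genes are not reported here by name. The members and lists were chosen with earlier results of these data known. Alternatives were RLE scaling, other filters, the 8 libraries alone, DESeq2 1.42.0, each library left out, replicate blocks, a correction for transcript length and GC content (with mgcv 1.9.3), thinning to the smallest library, leaving out 151 genes with unlabelled background and a test against a difference of 1.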

Additional observations from a re-analysis of the deposited data

Results flagged for a closer look

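The BRM014 effect differed between SK-N-DZ and KELLY for 501 genes by the test of the difference itself, and for 31 genes the effects passed in both lines with opposite signs. Single genes stood out by the same test. FOXC1 had a difference of effects of -4.28 (log2), with KELLY rising and SK-N-DZ not. GFRA2 had a difference of 3.47, with KELLY falling and the SK-N-DZ effect not passing. PLPPR4 had a difference of 2.48 and MYCN one of 0.96, both rising in SK-N-DZ and falling in KELLY. SESN3 had a difference of 1.59 and RND3 one of -1.52, and both rose in both lines, SESN3 further in SK-N-DZ and RND3 further in KELLY.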

How the results depend on the processing

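The count of 501 genes was 456 to 532 under RLE scaling, other filters, the 8 libraries alone, DESeq2, both replicate blocks and removal of genes with unlabelled background, and 428 with the length and GC correction. Thinned to the smallest library, 332 genes were called and 176 lower. A test against a difference of 1 called 28 genes, 11 higher and 17 lower, with 211 in SK-N-DZ, 215 in KELLY and 0 in opposite directions. With each library left out in turn, the count ranged from 318 to 423, the higher genes from 136 to 174, the lower from 181 to 258, the SK-N-DZ effect from 1614 to 2533, the KELLY effect from 859 to 1562 and the opposite genes from 22 to 28. Of 114 named genes called, 63 were called with every library left out. Besides the losses given above, thinning ended the calls of FGFR2, MMP15, NKD1, SLC6A2, ZEB2, BCL7A, CDKN1A, RPS3A, RPL28, ID1, TGFB2, PPARG, DBH, MKI67, BCOR, FAT3, SIX3, CDC6, GINS2, POLE, E2F1 and INSIG1. The length and GC correction ended those of BCL7A, NOP2, RPL28, ID1, TPI1, CBX2, BCOR, FAT3, POLE and E2F1. The 8 libraries alone lost GINS3 and RPL28, no filter lost RPL28, and DESeq2 lost SLC6A2 and CDKN1A. Genes not called changed sign: TBX2 (lowest -0.12, highest 0.35), TH (-0.50 to 2.45), RET (-1.69 to 1.27), SMARCA2 (-4.27 to 1.56), PHOX2A (-0.018 to 0.26) and HAND2 (-0.075 to 0.29) over the libraries left out, RET when thinned (0.14), and with the length and GC correction SMARCA2 (-0.0387, and -0.0346 with the block) and CCND1 (0.0645, and 0.0651 with the block). The cause was not tested. The replicate numbers did not pair the libraries: deviations of same-numbered libraries correlated at 0.022 in SK-N-DZ and -0.046 in KELLY over 6446 genes. With the replicate block within each line 514 genes were called, with 1 block over all lines 532, and with the block and the length and GC correction 449; none of these blocks moved a main count by over 1.5 times. The shallow SK-N-DZ BRM014 libraries limit genes that fell there.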

Other observations

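The following genes were picked after their values were seen and form no list, so they are given singly. SCD, the stearoyl-CoA desaturase, had 892 and 736 CPM in SK-N-DZ with BRM014 and 1366 and 1310.0 CPM with DMSO, against 1046 and 998 CPM in KELLY with BRM014 and 1023 and 892 CPM with DMSO, a difference of -0.81 ± 0.13 (log2, SE, edgeR adjusted p = 1.96e-06). FADS1 and FADS2, desaturases of polyunsaturated fatty acids, and ACLY, which supplies acetyl-CoA, fell in SK-N-DZ by 1.16, 1.26 and 1.03 on the log2 scale, with effects of 0.10, -0.11 and -0.08 in KELLY that did not pass; their differences were -1.26, -1.15 and -0.95 (edgeR adjusted p = 0.0013, 0.00222 and 9.83e-05). FASN, the fatty acid synthase, fell in both lines, and its difference of -0.53 did not pass (adjusted p = 0.0644). Among cytoskeletal genes, ACTG1, cytoplasmic gamma actin, fell by 0.63 in SK-N-DZ with an effect of 0.21 in KELLY (adjusted p of the difference 2.97e-07), and FLNA, the actin crosslinker filamin A, fell by 2.72 in SK-N-DZ and by 1.34 in KELLY (adjusted p of the difference 0.0131). TUBA1A, an alpha tubulin of neurons, rose by 0.74 in KELLY with an effect of -0.02 in SK-N-DZ (adjusted p of the difference 0.00106). These values were not tried with single libraries left out.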
